A study of Mus musculus with 24 samples.

Results

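Aqp1, Aqp3, Aqp4 and Aqp5 are the 4 aquaporin genes described here, chosen by name among the 14557 mouse gene symbols listed for the epithelial fraction of lung organoids. Each gene was read from 1 listed transcript, that with the largest mean over the 12 epithelial libraries, and all 4 passed the filter on low counts, which left 13759 genes for testing. Organoids were grown in Matrigel from 200000 EpCAM-positive lung cells of wild-type female C57BL6 mice mixed with 200000 CCL206 cells, a mouse lung fibroblast line from a male ddY animal, and were separated again with EpCAM beads after 7 days. The 3 epithelial groups held 4 libraries each, 1 from each of 4 mice whose number is shared between groups. Control wells received no fibers, 12k wells received 12000 nylon 6,6 fibers (12 by 31 µm), and 30k wells received 30000 of the same fibers. Every group, controls included, contained the same fibroblast line, and the fibers were mixed into the Matrigel at seeding.

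Aquaporins are membrane channels that let water follow osmotic gradients. In the classical members a pair of short Asn-Pro-Ala boxes meets in the middle of the pore. AQP1, AQP4 and AQP5 conduct mainly water, whereas AQP3 also passes glycerol. In rodent lung, AQP5 is best known from the apical membrane of alveolar type 1 cells, AQP3 from basal cells of the airway, AQP4 from the basolateral membrane of airway epithelium, and AQP1 from the endothelium of small vessels. None of these places need be the only one.

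The coding stretches that hold the boxes are shown for Aqp1, Aqp3 and Aqp5, because the boxes mark the pore and the counts below are counts on these transcripts. The stretch of Aqp4 is not shown. They come from GENCODE M21 transcripts (GRCm38, the same build as mm10), on the sense strand. Capitals mark the 9 bases of each box. Box 1 begins at coding base 226 in Aqp1-201, at 247 in Aqp3-201 and at 205 in Aqp5-202, and box 2 at coding bases 574, 643 and 553 of the same transcripts.
Aqp1 box 1: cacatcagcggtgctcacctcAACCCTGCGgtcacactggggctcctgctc
Aqp1 box 2: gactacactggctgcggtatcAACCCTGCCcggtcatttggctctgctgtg
Aqp3 box 1: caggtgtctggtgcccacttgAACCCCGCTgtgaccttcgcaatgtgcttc
Aqp3 box 2: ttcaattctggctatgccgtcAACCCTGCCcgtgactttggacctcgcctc
Aqp5 box 1: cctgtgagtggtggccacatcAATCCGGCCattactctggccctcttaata
Aqp5 box 2: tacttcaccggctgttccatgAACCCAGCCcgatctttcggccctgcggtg

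The transcript used for Aqp1 was Aqp1-201, with 4 exons and 2627 bases on the plus strand at chr6:55336432-55348555, the only Aqp1 transcript listed. Aqp3 was read from Aqp3-201, with 6 exons and 1765 bases on the minus strand at chr4:41092722-41098183, 1 of 2 listed. Aqp5 was read from Aqp5-202, with 4 exons and 1797 bases on the plus strand at chr15:99590782-99594829, 1 of 6 listed. Aqp4 was read from Aqp4-201, with 5 exons and 5054 bases on the minus strand of chromosome 18, 1 of 12 listed.

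Total counts over all transcripts, in which 1 read can count for several transcripts, were 21222034 to 28232472 in control libraries, 20103389 to 31119155 in 12k libraries and 6767842 to 9234052 in 30k libraries. The 30k libraries also stood apart in makeup. Mitochondrial genes held 5.20% to 7.77% of representative counts in control, 5.33% to 6.91% in 12k and 14.3% to 16.3% in 30k libraries, and ribosomal protein genes held 0.818% to 0.982%, 0.935% to 0.990% and 4.16% to 4.62% in the same order. All of the 4 libraries of the 30k group shared this makeup, so the dose and the library type cannot be told apart within that group. In such bulk samples fewer cells of a type and less RNA per cell cannot be told apart.

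The fibers were followed by much lower counts of Aqp3, Aqp4 and Aqp5 and by no call for Aqp1. Against control, Aqp4 fell 27.4-fold at 12k and 81.2-fold at 30k, Aqp3 fell 16.4-fold and 29.2-fold, and Aqp5 fell 2.46-fold and 3.32-fold. The Aqp5 value at 30k depends on the transcript read, with a log2 change of -1.73 for Aqp5-202, used throughout, and -2.76 for Aqp5-201. Thus 3 of the 4 genes were lower at 12k, where 19.3% of all tested genes were called lower and 38% were called in either direction, and the same 3 were lower at 30k, where 33.4% were called lower and 65.6% in either direction. Genes called higher made up 18.7% at 12k and 32.2% at 30k. The libraries of each of these 3 genes did not overlap those of control, which held for 36.3% of all tested genes at 12k and 58.1% at 30k. Both comparisons use the same control libraries. Levels are CPM, the counts in parts per 1000000 of the scaled total of representative counts, and calls are edgeR quasi-likelihood tests with Benjamini-Hochberg adjusted p under 0.05 over all tested genes.

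**Figure D1:**
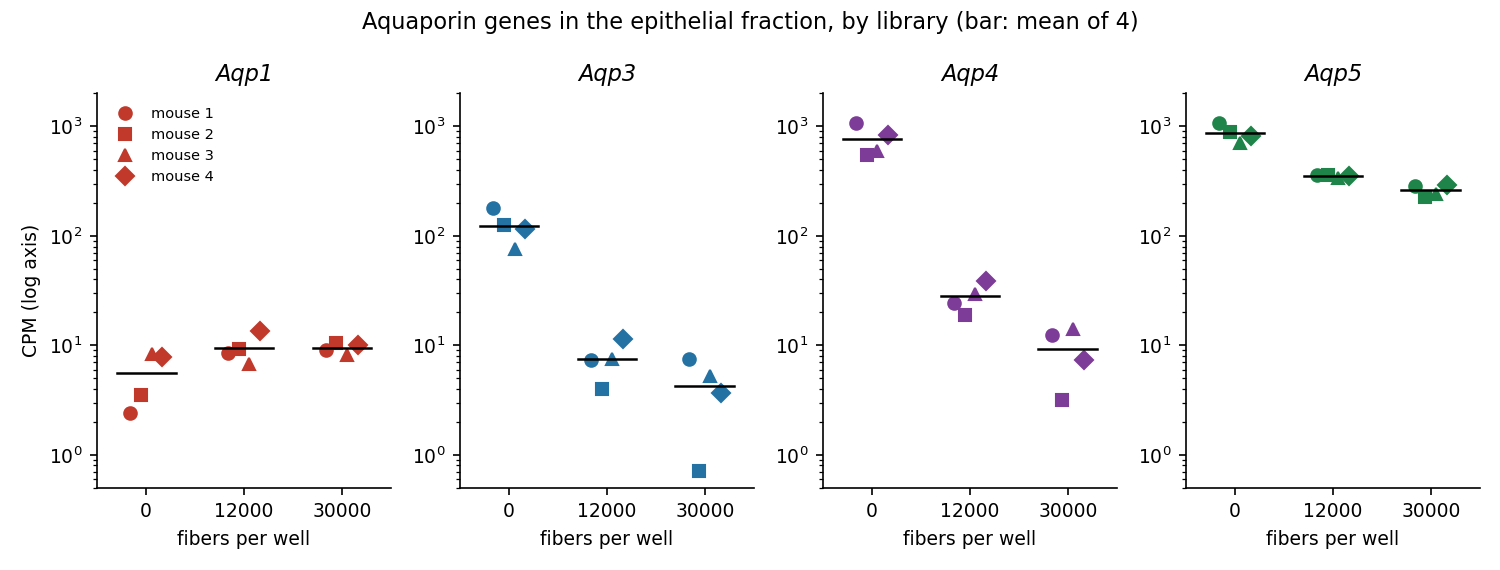
Level of each aquaporin gene in each of the 12 epithelial libraries, as CPM on a log axis against fibers per well, with 1 symbol per mouse and a bar at the mean of 4. Aqp3, Aqp4 and Aqp5 sit below every control library at both doses, while the Aqp1 libraries overlap between all groups.

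Aqp5, best known as the apical water channel of alveolar type 1 cells, had 1069, 888, 702 and 820.4 CPM in control mice 1 to 4. It had 359, 358, 341 and 355 CPM at 12k, and 285, 228, 244 and 292 CPM at 30k. The 3 groups did not overlap, and the 12k libraries lay within a narrow band, with a coefficient of variation of 2.41% against 17.6% in control. Its mean was 353 ± 8.50 CPM at 12k and 262 ± 30.9 CPM at 30k, against 870.1 ± 153 CPM in control (SD, n = 4 each). The log2 change was -1.30 ± 0.10 at 12k (SE, edgeR adjusted p = 1.20e-07) and -1.73 ± 0.11 at 30k (edgeR adjusted p = 3.82e-10), lower in 4 of 4 mice at each dose. Of all tested genes, 3.79% had a lower log2 change at 12k and 4.03% at 30k.

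Other genes of alveolar type 1 cells moved in both directions. Of the 18 genes listed for that cell type, 16 were tested, of which 5 rose and 4 fell at 12k, with a median log2 change of 0.10, beside -0.0026 over all tested genes. At 30k, 2 rose and 8 fell, with a median of -0.46, beside -0.026 over all tested genes. Shares over all tested genes were 18.7% higher and 19.3% lower at 12k, and 32.2% higher and 33.4% lower at 30k. Hopx, a homeodomain gene that marks these cells, had 50.3 ± 4.99 CPM at 12k and 45.7 ± 11.4 CPM at 30k, against 56.6 ± 8.44 CPM in control (SD, n = 4 each), and was not called (edgeR adjusted p = 0.333 and 0.0838). Cav1, a caveolar coat gene, had a log2 change of -1.42 at 12k and -0.996 at 30k, and Agrn, a basement membrane proteoglycan, had -1.21 at 30k, all called lower. Gprc5a, an orphan receptor, and Col4a3, a basement membrane collagen, rose at 12k by 0.65 and 0.67 on the log2 scale. The rise of Col4a3 did not hold at 30k, where it had 241 CPM, against 560 CPM at 12k and 351.5 CPM in control. Summed over the 17 genes with counts, the list stood at 4594 to 5776 CPM in control, 5725 to 6664 CPM at 12k and 4182 to 4536 CPM at 30k. Pdpn was not analysed here.

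Aqp4, the basolateral water channel of airway epithelium, had 1079, 551, 598 and 831 CPM in control mice 1 to 4. It had 24.6, 18.8, 29.7 and 39.1 CPM at 12k, and 12.5, 3.18, 14.1 and 7.35 CPM at 30k, the last from 32, 9, 48 and 22 counts. No 2 groups overlapped. Its mean was 28.0 ± 8.63 CPM at 12k and 9.30 ± 5.00 CPM at 30k, against 765 ± 243 CPM in control (SD, n = 4 each). The log2 change was -4.78 ± 0.33 at 12k (SE, edgeR adjusted p = 2.72e-06) and -6.34 ± 0.41 at 30k (edgeR adjusted p = 3.17e-07), lower in 4 of 4 mice at each dose. Only 0.153% of tested genes had a lower log2 change in each comparison.

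Aqp3, the channel for water and glycerol, had 179, 126.5, 75.6 and 115.5 CPM in control mice 1 to 4. It had 7.35, 4.00, 7.53 and 11.4 CPM at 12k, and 7.44, 0.706, 5.30 and 3.68 CPM at 30k, the last from 19, 2, 18 and 11 counts. Every library with fibers was below every control library, and the 12k and 30k libraries overlapped. Its mean was 7.57 ± 3.02 CPM at 12k and 4.28 ± 2.84 CPM at 30k, against 124 ± 42.7 CPM in control (SD, n = 4 each). The log2 change was -4.04 ± 0.35 at 12k (SE, edgeR adjusted p = 1.47e-05) and -4.87 ± 0.48 at 30k (edgeR adjusted p = 8.22e-06), lower in 4 of 4 mice at each dose. A lower log2 change was found for 0.327% of tested genes at 12k and 0.400% at 30k.

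Markers of the airway cell types that carry these channels moved in the same direction. Of 15 basal cell genes, 14 were tested: 11 fell and 1 rose at 12k with a median log2 change of -2.90, and 12 fell and 1 rose at 30k with a median of -3.77. Beside these counts, 19.3% of all tested genes were called lower at 12k and 33.4% at 30k. The summed level of the basal genes was 3740 to 5378 CPM in control, 1913 to 2101 CPM at 12k and 1162 to 1344 CPM at 30k, and no group mean of a listed gene was at 0. Krt5, the basal cell keratin, had 52.6 ± 20.0 CPM at 12k and 18.3 ± 7.59 CPM at 30k, against 702 ± 197 CPM in control (SD, n = 4 each). Its log2 change was -3.75 at 12k and -5.24 at 30k (edgeR adjusted p = 1.48e-05 and 1.16e-06).

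Of 15 club and secretory cell genes, all tested, 13 fell and none rose at 12k, with a median of -4.90, and 13 fell and 1 rose at 30k, with a median of -5.04. Scgb1a1, the main club cell secretory protein, was the gene that rose, with 209.9 ± 25.0 CPM at 30k against 11.5 ± 5.10 CPM in control (SD, n = 4 each). Of 15 ciliated cell genes, 11 were tested, and 11 fell at 12k and 9 at 30k with none higher. Both lists stand beside 19.3% of all tested genes called lower at 12k and 33.4% at 30k. Foxj1, the master regulator of motile cilia, had a log2 change of -1.25 at 12k and -2.06 at 30k. The club and secretory list summed to 2083 to 4415 CPM in control, 342 to 462 CPM at 12k and 483 to 738.5 CPM at 30k. The ciliated list summed to 235 to 345 CPM in control, 146 to 174 CPM at 12k and 168 to 197 CPM at 30k. The part of these cell types in the falls of Aqp3 and Aqp4 was not tested.

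Aqp1, the water channel best known from endothelium and red blood cells, was the lowest member in control. It had 2.43, 3.50, 8.34 and 7.89 CPM in control mice 1 to 4, 8.52, 9.19, 6.83 and 13.7 CPM at 12k, and 9.01, 10.6, 8.24 and 10.0 CPM at 30k. Control mice 1 and 2 were below all libraries with fibers, control mice 3 and 4 were not, and the groups overlapped. Its mean was 9.55 ± 2.92 CPM at 12k and 9.46 ± 1.04 CPM at 30k, against 5.54 ± 3.01 CPM in control (SD, n = 4 each). The log2 change of 0.79 ± 0.32 at 12k had a 95% interval of 0.10 to 1.48 and did not pass after adjustment (SE, edgeR adjusted p = 0.0676), and that of 0.78 ± 0.38 at 30k had an interval of -0.038 to 1.60 (edgeR adjusted p = 0.0856). Values were higher in 3 of 4 mice at each dose. With the mouse as a block the same comparisons passed, with 0.84 at 12k (edgeR adjusted p = 0.0270) and 0.81 at 30k (edgeR adjusted p = 0.0453), so the call depends on the fit. It also passed at both doses with control mouse 3 left out (edgeR adjusted p = 0.0198 at 12k and 0.0271 at 30k) or control mouse 4 left out (0.0289 and 0.0321), and at 12k with 12k mouse 3 left out (0.0494).

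Markers of the cell types best known for Aqp1 were scarce. Of 15 endothelial genes, 7 were tested, with a summed level of 14.3 to 23.7 CPM in control, 29.3 to 34.2 CPM at 12k and 23.3 to 26.8 CPM at 30k. At 12k 2 of them rose and none fell, beside 18.7% and 19.3% of all tested genes. At 30k 2 rose and 1 fell, beside 32.2% and 33.4% of all tested genes. The genes called at 12k were Esam, with a log2 change of 1.06, and Plvap, with 1.45. Those called at 30k were Plvap, with 1.66, Eng, with 1.23, and Kdr, with -1.05. Plvap, Eng and Kdr had 2.29, 1.77 and 0.903 CPM at 30k, against 0.725, 0.790 and 1.94 CPM in control, so these calls rest on low levels. Esam was higher, with 20.6 CPM at 12k against 9.90 CPM in control. Pecam1, an adhesion molecule of endothelium, had 0.867 ± 0.240 CPM at 12k and 1.88 ± 0.834 CPM at 30k, against 1.37 ± 0.311 CPM in control (SD, n = 4 each), and passed in neither comparison (edgeR adjusted p = 0.106 and 0.329). None of the 10 red blood cell genes was listed, in a table whose lowest transcript total over the epithelial libraries was 60, so their level was not analysed here.

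Fibroblast genes were higher with fibers. Of 25 fibroblast genes 22 were tested, and 21 rose with none lower at each dose, with median log2 changes of 1.03 at 12k and 1.69 at 30k. Beside these, 18.7% of all tested genes were called higher at 12k and 32.2% at 30k. The fibroblast genes summed to 8844 to 14160 CPM in control, 16480 to 17970 CPM at 12k and 16230 to 19310 CPM at 30k. Col1a1, a collagen chain, had a log2 change of 0.84 at 12k and 1.58 at 30k. With a fibroblast score of each library as a covariate, the log2 change of Aqp1 turned to -0.33 at 12k (edgeR adjusted p = 0.778) and -1.26 at 30k (edgeR adjusted p = 0.233). Aqp3, Aqp4 and Aqp5 kept their calls with this covariate, with log2 changes of -3.04 at 12k and -3.17 at 30k for Aqp3, -4.11 at 12k and -5.21 at 30k for Aqp4 and -0.79 at 12k and -0.85 at 30k for Aqp5. The score is the mean log2 CPM of the listed fibroblast genes in the same libraries. Their summed levels in control did not overlap those with fibers, so this fit cannot tell fibroblast content and fibers apart.

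Genes shared by all epithelial cells were more often lower than higher. Of 22 pan-epithelial genes, 4 rose and 10 fell at 12k, with a median of -0.19, and 1 rose and 17 fell at 30k, with a median of -0.77. For this list and those below, the shares over all tested genes were 18.7% higher and 19.3% lower at 12k. At 30k they were 32.2% higher and 33.4% lower. The pan-epithelial genes summed to 9803 to 11420 CPM in control, 9490 to 10520 CPM at 12k and 5126 to 6002 CPM at 30k. Epcam, the surface protein used for the separation, had 484 ± 14.9 CPM at 12k and 239 ± 36.8 CPM at 30k, against 650.3 ± 64.5 CPM in control (SD, n = 4 each). Its log2 changes, -0.43 and -1.44, were both called (edgeR adjusted p = 0.00101 and 1.43e-10). The summed pan-epithelial level at 12k overlapped that of control, and that at 30k did not. The part of epithelial content in the aquaporin falls was not tested. Of 16 alveolar type 2 genes, 5 rose and none fell at 12k, and 9 rose and 3 fell at 30k. Mesothelial genes, 4 tested of 8, showed 1 higher and 3 lower at each dose, and immune genes, 3 tested of 10, showed 1 higher at 12k and 2 at 30k.

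**Figure D2:**
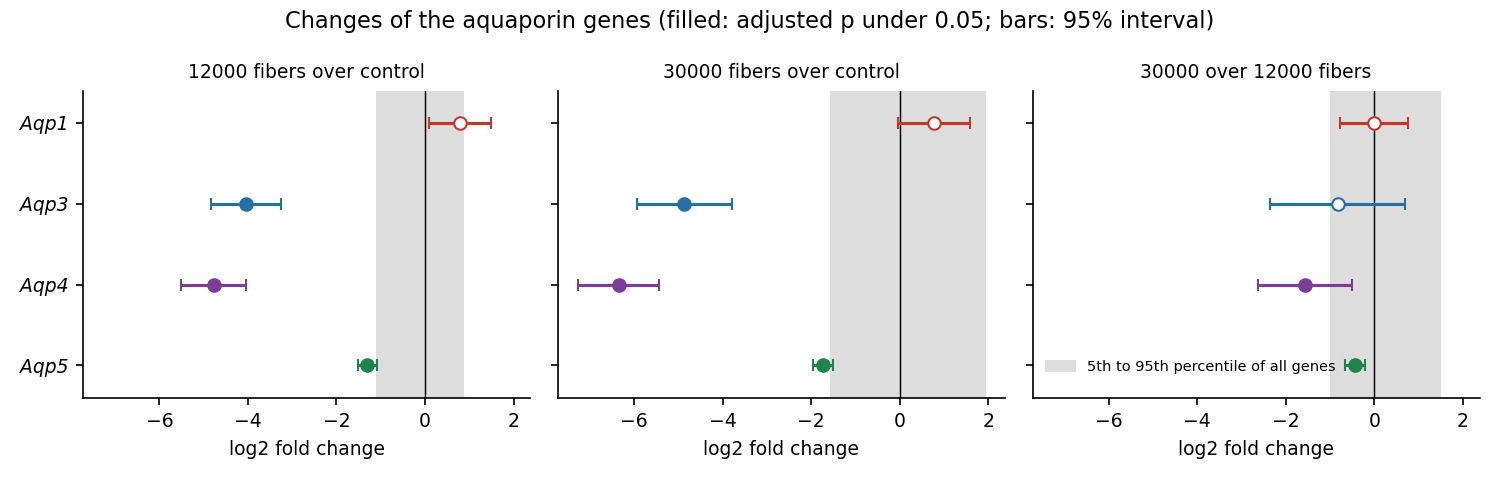
Log2 fold change of each aquaporin gene in the 3 comparisons, with 95% intervals from the edgeR fit. Filled points have an adjusted p under 0.05, and the grey band spans the 5th to the 95th percentile of all 13759 tested genes. Aqp3 and Aqp4 lie far below the band against control, and Aqp5 lies just below it.

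The higher dose was set directly against the lower one. Aqp4 was lower at 30k than at 12k, with a log2 change of -1.57 ± 0.47 (SE, edgeR adjusted p = 0.0172), and Aqp5 was lower by -0.43 ± 0.11 (SE, edgeR adjusted p = 0.00251), each in 4 of 4 mice and with no overlap. The 2 calls among 4 genes stand beside 27.1% of tested genes called lower, 28.3% called higher and 55.4% called in either direction, and 52.3% of tested genes had groups that did not overlap. Aqp3 had a log2 change of -0.83 with an interval of -2.35 to 0.70 (edgeR adjusted p = 0.330), and Aqp1 had -0.012 with an interval of -0.79 to 0.76 (edgeR adjusted p = 0.980). The Aqp4 call was lost without 30k mouse 2, the library with 9 counts (log2 change -1.29, edgeR adjusted p = 0.0506), and with the fibroblast covariate (-1.10, edgeR adjusted p = 0.127). The Aqp5 call was also lost with the covariate (-0.060, edgeR adjusted p = 0.632).

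Levels can be ordered between genes only per length, as CPM per kilobase of transcript. In control the order was Aqp5, Aqp4, Aqp3 and Aqp1, at 484, 151, 70.4 and 2.11 CPM per kilobase, and no neighbours in this order overlapped. At 12k Aqp5 stood at 196.5 CPM per kilobase, 35.4 times the next gene. Aqp4, Aqp3 and Aqp1 followed at 5.55, 4.29 and 3.64 CPM per kilobase, and each overlapped its neighbour. At 30k Aqp5 stood at 146 CPM per kilobase, and Aqp1, Aqp3 and Aqp4 followed at 3.60, 2.42 and 1.84 CPM per kilobase, each overlapping its neighbour, while every Aqp1 library lay above every Aqp4 library.

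The summed per-length level of the 4 genes was 708 ± 148 CPM per kilobase in control, 210.0 ± 6.14 at 12k and 153.8 ± 18.5 at 30k (SD, n = 4 each). Aqp5 made up 68.8 ± 3.64% of it in control, 93.6 ± 1.85% at 12k and 94.9 ± 1.18% at 30k (SD, n = 4 each). The share of Aqp4 was 21.2%, 2.64% and 1.18% in the same order, and that of Aqp3 was 9.74%, 2.03% and 1.53%. Aqp1 held 0.327%, 1.72% and 2.38%. These shares also rest on the division by length, with the same limit at 30k. In every library with fibers most of the summed level was Aqp5.

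**Figure D3:**
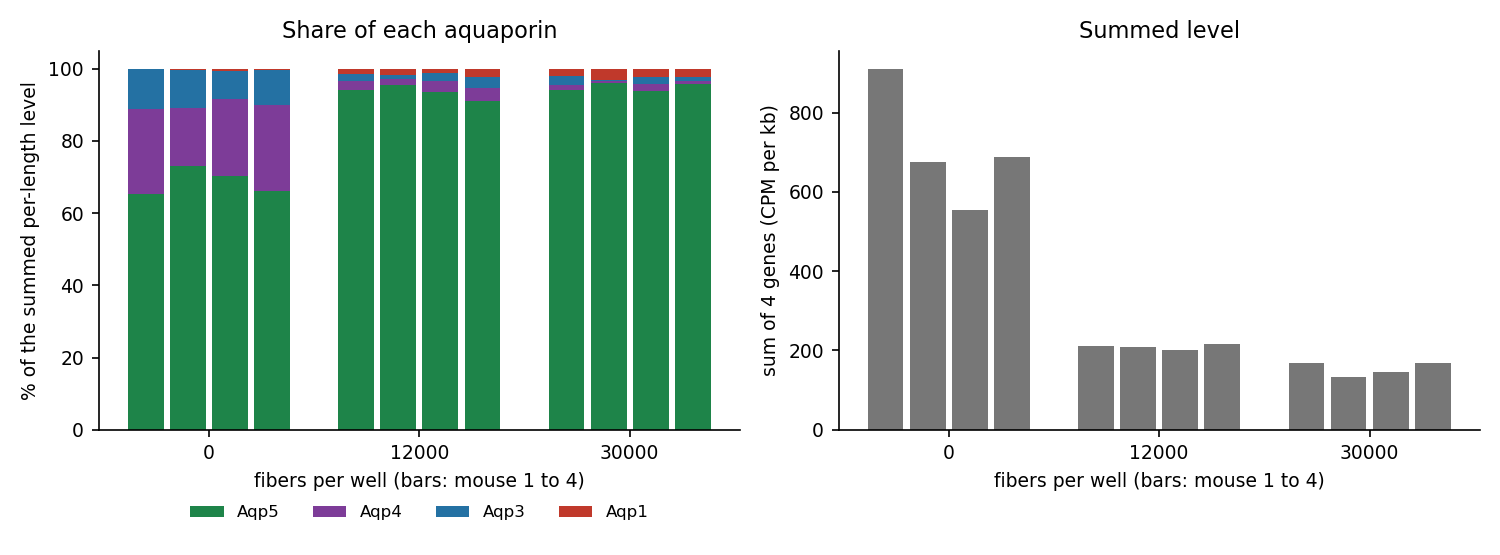
Left, share of each aquaporin in the summed per-length level of the 4 genes, as a percentage, and right, that sum in CPM per kilobase, with 1 bar per library in the order of mouse 1 to 4 at each number of fibers per well. Aqp5 takes over 90% of the sum in every library with fibers, against 68.8% on average in control, while the sum falls.

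Ratios within a library do not depend on the scaling between libraries, and 18 such comparisons were tested with exact permutation tests, 2-sided. For these, 0.0286 is the smallest p that 4 against 4 libraries allow. The exact tests, here and for the isoforms below, permuted libraries without regard to the pairing by mouse. Aqp4 over Aqp5 had a mean log2 ratio of counts of -3.70 at 12k against -0.22 in control, and -4.99 at 30k against -0.22 in control. Each difference reached the smallest p (exact p = 0.0286, Benjamini-Hochberg adjusted 0.0429). The 18 ratio tests share genes and libraries, so they are not independent, and the adjusted value depends on how many of them reached the smallest p. Aqp3 over Aqp5 differed from control by -2.77 at 12k and -3.38 at 30k, with the same p. Aqp3 and Aqp4 thus both fell more than Aqp5 in these libraries. Aqp3 over Aqp4 was higher than in control by 0.71 at 12k (exact p = 0.0571, adjusted 0.0735) and by 1.38 at 30k (exact p = 0.0286, adjusted 0.0429), so Aqp4 fell further than Aqp3 at 30k, where the counts of both were low. Aqp1 over Aqp5 was higher by 2.20 at 12k and 2.68 at 30k, each with the smallest p.

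The files list 12 Aqp4 transcripts, and in the fit over all 67490 tested transcripts all 12 fell at both doses. Their log2 changes were -4.97 to -4.78 at 12k and -6.98 to -5.94 at 30k, beside 14.8% and 33.3% of all transcripts called lower. At 30k against 12k none of the 12 passed, with values of -2.01 to -1.10 and edgeR adjusted p from 0.0570 to 0.299, beside 29.2% of all transcripts called lower. Against the gene fit, this fit moved the median of the representative transcripts by 0.34 at 30k, both against control and against 12k. The 12 transcripts are not 12 independent readings. In every library 7 of the 12 had counts within 2 of Aqp4-204, itself included, and 2 had counts within 3 of the highest, as happens where 1 read is counted on each isoform that contains it. Aqp4-204 had 24.3 ± 1.84% of the Aqp4-201 count in control, 22.1 ± 3.49% at 12k and 17.8 ± 4.86% at 30k (SD, n = 4 each). Both Aqp3 transcripts fell at both doses. The count of the retained-intron transcript Aqp3-202, as a share of that of Aqp3-201, was 19.0 ± 1.66% in control, 12.6 ± 3.45% at 12k and 14.1 ± 11.8% at 30k (SD, n = 4 each). The 30k share rests on Aqp3-202 counts of only 2, 0, 5 and 2 in mice 1 to 4.

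All of the 6 Aqp5 transcripts fell at both doses, by similar amounts at 12k (-1.33 to -1.20) and by unequal amounts at 30k (-2.52 to -1.34). The spread at 30k followed the 3′ end. Aqp5-204 starts further downstream than Aqp5-201 and runs 213 bases further at the 3′ end, so its count beyond that of Aqp5-201 lies on that stretch if reads are counted on every isoform that holds them. The excess was 0.809% to 1.99% of the Aqp5-204 count in control, 1.27% to 2.26% at 12k and 44.7% to 51.8% at 30k. In the 30k libraries Aqp5-204 had 612, 537, 686 and 717 counts in mice 1 to 4, while Aqp5-201 had 295, 297, 340 and 380. The 30k libraries lay far from all others, and control and 12k overlapped. The mean was 48.5 ± 3.23% at 30k against 1.26 ± 0.552% in control (SD, n = 4 each; exact p = 0.0286, adjusted 0.0857 over 9 such tests). It was 1.79 ± 0.514% at 12k against 1.26 ± 0.552% in control (SD, n = 4 each; exact p = 0.200, adjusted 0.30).

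**Figure D4:**
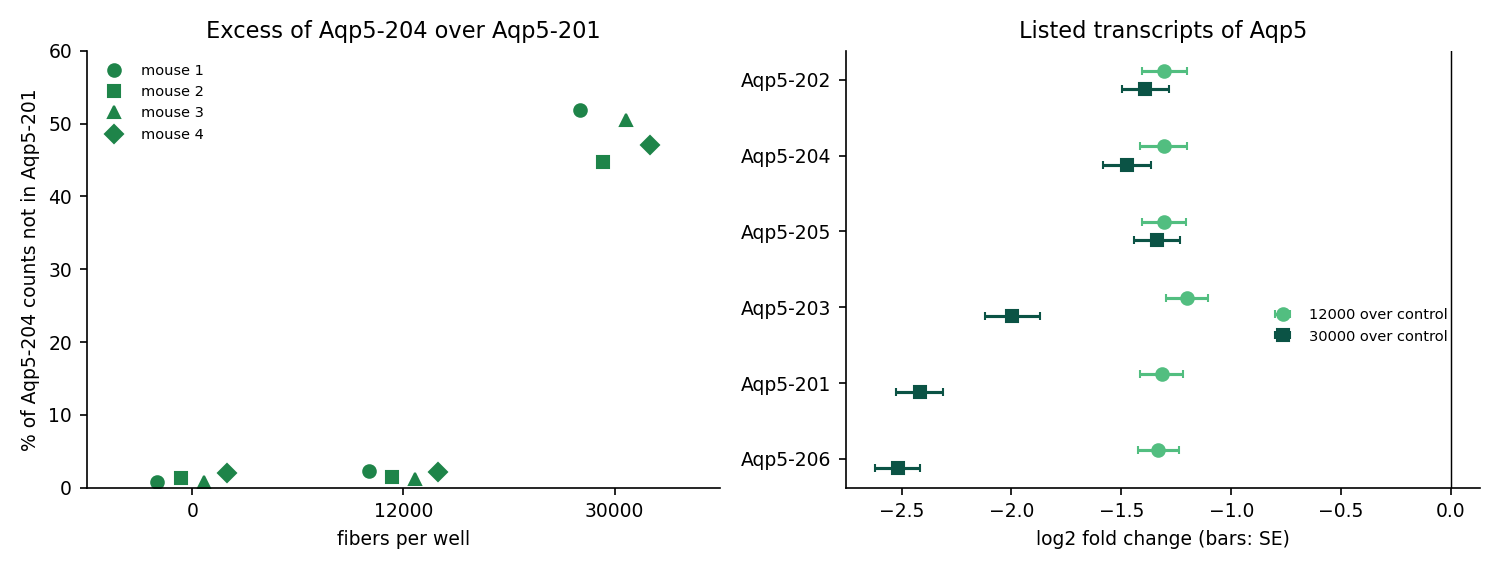
Left, excess of the Aqp5-204 count over the Aqp5-201 count as a percentage of the Aqp5-204 count, by library and fibers per well, and right, log2 fold change with SE of the 6 listed Aqp5 transcripts in the transcript fit. The 30k libraries lie between 44.7% and 51.8%, and the 3 transcripts in the lower rows, which end earlier at the 3′ side, show the larger falls at 30k.

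The size of the Aqp5 fall at 30k therefore depended on where along the transcript reads were counted. Read from Aqp5-201, which lacks the stretch, the log2 change was -2.76 at 30k against control and -1.44 at 30k against 12k, in place of -1.73 and -0.43. In the fit over all transcripts Aqp5-202 had -1.39 at 30k against control and -0.087 at 30k against 12k (edgeR adjusted p = 0.502). That fit moved the median of the 13759 representative transcripts by 0.34 at 30k against control and by 0.34 at 30k against 12k, and relative to that shift the Aqp5 values matched the gene fit to within rounding. A 3′ shift was not particular to Aqp5: among 626 genes with a comparable pair of transcripts, 74.4% had a higher ratio at 30k than in control, the median log2 difference was 0.13, and 11.7% exceeded the 0.94 of Aqp5. At 12k the median was -0.0048 and that of Aqp5 0.0078.

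Few other aquaporins were counted. Of 8 other mouse aquaporin genes looked up, Aqp7 and Aqp11 had counts and the other 6 were not analysed here. Aqp7, a second channel for water and glycerol, had 1.35 ± 0.256 CPM in control, 0.986 ± 0.466 at 12k and 0.731 ± 0.421 at 30k (SD, n = 4 each) and did not pass the filter on low counts. Aqp11, an intracellular aquaporin, had 1.48 ± 0.605 CPM in control, 0.981 ± 0.401 at 12k and 2.05 ± 1.36 at 30k (SD, n = 4 each) and was not called in either comparison with control (edgeR adjusted p = 0.306 and 0.356).

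Genes that work with aquaporins were called about as often as all tested genes. Of 16 genes for partners and anchors, 15 were tested, and 3 rose and 3 fell at 12k, beside 18.7% and 19.3% of all tested genes. At 30k 3 rose and 7 fell, beside 32.2% and 33.4% of all tested genes. Trpv4, an osmosensitive calcium channel, fell most, with 13.3 ± 5.74 CPM at 12k and 5.84 ± 1.78 CPM at 30k, against 67.3 ± 11.1 CPM in control (SD, n = 4 each). Its log2 changes were -2.36 and -3.50 (edgeR adjusted p = 2.84e-05 and 4.04e-06). Msn, the membrane linker moesin, rose by 0.52 and 0.44 on the log2 scale. Of 11 genes of glycerol metabolism 10 were tested, and 2 rose and 3 fell at 12k while 4 rose and 5 fell at 30k. Among them Gpd1l, a homologue of glycerol-3-phosphate dehydrogenase, fell by 0.87 and 1.02, and Plin2, a lipid droplet coat protein, rose by 0.59 and 0.34.

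Ion transport sets the osmotic gradient that water follows. Of 20 such genes, all tested, 5 rose and 10 fell at 12k with a median of -0.30, and 3 rose and 10 fell at 30k with a median of -0.44. Shares over all tested genes were 18.7% higher and 19.3% lower at 12k, and 32.2% higher and 33.4% lower at 30k. In either direction, 38% of all tested genes were called at 12k and 65.6% at 30k. Slc12a2, the basolateral sodium-potassium-chloride cotransporter, had log2 changes of -0.67 at 12k and -1.47 at 30k, both called lower. Fxyd3, a modulator of the sodium pump, and Kcne3, a potassium channel subunit, fell at 12k by 3.05 and 4.03. Genes of the response to hypertonicity, 8 tested of 10, showed 1 higher and 4 lower at 12k and 2 higher and 1 lower at 30k. Nfat5, the transcription factor of that response, had -0.73 and -0.35, both called, and Akr1b3, which makes sorbitol, rose by 1.77 at 30k.

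**Figure D5:**
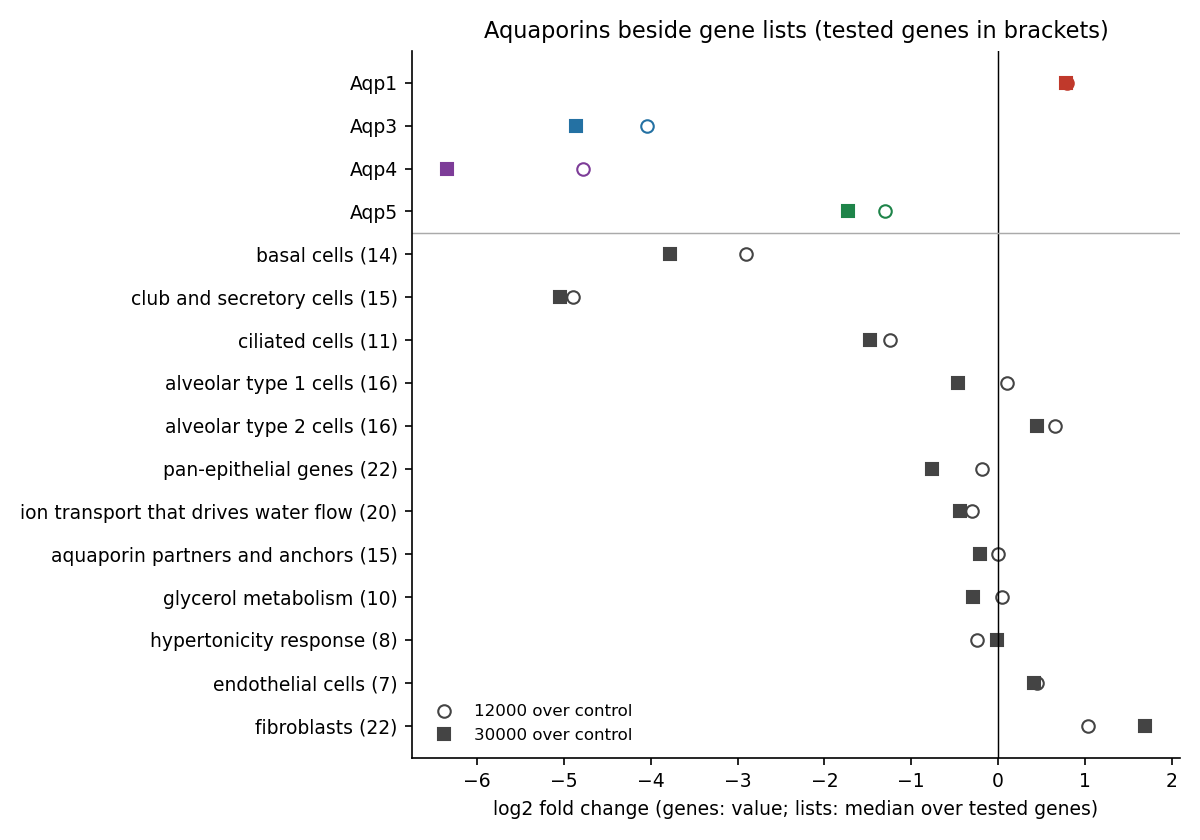
Log2 fold change of the 4 aquaporin genes (upper rows) and the median over tested genes of 12 gene lists (lower rows), for 12k over control (open circles) and 30k over control (filled squares). The basal list and the club and secretory list have the lowest medians of the lists drawn, -2.90 and -4.90 at 12k, while the alveolar type 1 list has a median of 0.10 at 12k.

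The genes whose log2 CPM followed each member most closely over the 12 libraries were ranked among 12012 genes, as a description, since all share libraries and the differences between groups. For Aqp4 they were Ltf (Pearson r = 0.997), Gabrp (0.996), Ngfr (0.994) and Col17a1 (0.994). For Aqp3 they were Btbd11 (0.993), Mapk15 (0.991), Gabrp (0.990) and Nrarp (0.988). For Aqp5 they were Fgfr3 (0.993), Eya2 (0.990), Anxa8 (0.989) and Pcsk6 (0.988). For Aqp1 they were Crebl2 (0.958), Meg3 (0.932), Adam19 (0.930) and Tbc1d24 (0.928). Ltf encodes lactoferrin and had 51.5 CPM at 12k and 22.8 CPM at 30k, against 1015 CPM in control. Gabrp, a GABA receptor subunit on the lists of both Aqp3 and Aqp4, had 36.4 CPM at 12k and 15.7 CPM at 30k, against 351 CPM in control.

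Among the members themselves, Aqp3 and Aqp4 had r = 0.984 over the 12 libraries and 0.925 once the group means were removed. Libraries high for 1 of the 2 thus tended to be high for the other, but the order was not the same. In control, mouse 3 was lowest for Aqp3 (75.6 CPM) and mouse 2 for Aqp4 (551 CPM). The value also includes low counts, such as 2 for Aqp3 and 9 for Aqp4 in 30k mouse 2. Aqp4 and Aqp5 had 0.976, and 0.423 with group means removed. Aqp3 and Aqp5 had 0.963 and 0.591. Aqp1 and Aqp5 had -0.74 and -0.65.

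The stretches before the transcription start are shown for Aqp3, a member with a large fall, and Aqp1, the member with no call. They are the 250 bases before the start in RefSeq (GRCm38.p6): chr4:41098184-41098433 on the minus strand for Aqp3, and chr6:55336049-55336298 on the plus strand for Aqp1. Capitals mark motif matches, searched on both strands. The TATA box was searched as TATAAA. The GC box was searched as GGGCGG, which reads CCGCCC on the opposite strand. The CCAAT box was searched by its name's letters, and an E-box as CACGTG. No matches in these windows overlapped. The Aqp3 window held TATAAA at base -29 and CCGCCC at base -73 from the start, and the Aqp1 window held GGGCGG at base -190. Of 32851 RefSeq promoter windows of this length, 12.4% held TATAAA, 32.7% the GC box, 33.9% CCAAT and 6.02% CACGTG. The Aqp1 start of RefSeq lies before that of Aqp1-201.
Aqp3 promoter: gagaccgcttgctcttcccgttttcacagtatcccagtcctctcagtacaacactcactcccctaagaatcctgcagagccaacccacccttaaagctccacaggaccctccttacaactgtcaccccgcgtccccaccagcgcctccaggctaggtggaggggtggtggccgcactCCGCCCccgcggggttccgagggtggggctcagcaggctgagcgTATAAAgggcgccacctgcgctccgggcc
Aqp1 promoter: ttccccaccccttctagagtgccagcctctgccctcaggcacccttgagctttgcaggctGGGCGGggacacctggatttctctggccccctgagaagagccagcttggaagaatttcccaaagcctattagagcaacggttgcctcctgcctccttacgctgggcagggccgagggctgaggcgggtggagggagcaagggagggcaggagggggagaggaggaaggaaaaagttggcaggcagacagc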

How the data were processed

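Reads came from 12 epithelial and 12 fibroblast fractions sequenced on a NextSeq 500 from 300 ng of RNA, per the labels. The submitters' processing notes name bcl2fastq, FastQC, cutadapt 1.12, HISAT2 2.1.0 and mm10, and no source used here names the tool or rule that made the counts. Libraries carried stochastic molecular barcodes, per the labels, and whether duplicates were removed is not stated. The authors deposited raw counts per transcript: 71081 transcripts, of which 70518 matched GENCODE M21, and the lowest sum over the epithelial libraries was 60. Fibroblast columns were not used, because their 107814 entries run past the last identifier by 36733.

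The counts were scaled by TMM and fitted with edgeR 4.0.16 in R 4.3.3 (filterByExpr, robust quasi-likelihood, group as the only term, 9 residual degrees of freedom), with Benjamini-Hochberg adjustment. The code was tested on simulated data. DESeq2 1.42.0, other scalings and filters, summed transcripts, a mouse block, a fibroblast covariate and left-out libraries were alternatives. Log2 ratios used a pseudocount of 0.5. The titles give each library a mouse number, taken here as the same mouse in every group, since the labels name 4 mice in all. The values show this only weakly: deviations of same-numbered libraries correlated at -0.0192 to 0.156. Repeat libraries are separate mice, but the fibroblast line is shared.

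The members and gene lists were chosen with earlier results of these data known. Named genes are the members, other aquaporins with counts, up to 4 genes per list and comparison by smallest p, the 4 most alike in pattern, and Epcam, Col1a1, Pecam1, Hopx, Krt5, Foxj1, Scgb1a1 and Sftpc. Sftpc, the surfactant gene of type 2 cells, had 3599 CPM at 30k against 1671 CPM in control. 1 gene that this rule names is not reported here.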

Additional observations from a re-analysis of the deposited data

How the results depend on the processing

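Of 228 alternative values of the 4 genes over 3 comparisons, 204 kept direction and call, 6 lost the call, 11 gained one and 7 turned direction. Aqp3, Aqp4 and Aqp5 kept their calls against control under every alternative run. Aqp1 against control gained a call under the replicate block (0.84 at 12k and 0.81 at 30k, the pairing by mouse) and under DESeq2 (0.79 and 0.78). At 30k it also gained one with summed transcripts (0.91) and with all listed transcripts in the fit (1.119), and it turned with the fibroblast covariate (-0.33 and -1.26). The fit over all listed transcripts moved the median of the representative transcripts by 0.34 at 30k against control, so the 1.119 holds that shift. The block changed no other call. Leaving out 1 library gave 0.55 to 1.04 at 12k, 0.54 to 1.02 at 30k and -0.14 to 0.20 at 30k against 12k. Aqp1 at 30k against 12k turned to 0.13 with summed transcripts and to 0.33 with all listed transcripts. The 0.33 likewise holds a shift of 0.34 in the median of the representative transcripts.

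At 30k against 12k, Aqp4 lost its call with the fibroblast covariate (-1.10), with Aqp4-204 (-1.80) and with all listed transcripts (-1.22), and Aqp5 lost it with the covariate (-0.060) and with all listed transcripts (-0.087). Both values with all listed transcripts hold the shift of 0.34. Leaving out 1 library gave -1.89 to -1.29 for Aqp4. With the covariate 888 genes were called at 12k, against 5231 without it, and 3252 at 30k, against 9026 without it. The cause was not tested. The isoform and all-transcript settings were chosen after seeing the data. Depth limits Aqp3 and Aqp4 at 30k, where the lowest libraries had 2 and 9 counts.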
